A study of Mus musculus with 4 samples.

Results

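The nuclear-encoded subunits of oxidative phosphorylation were examined in short-read RNA-seq of mouse embryonic stem cells (ESCs), as the mRNA levels of each subunit before and after 4 days with retinoic acid (RA). Members were chosen by gene symbol alone, as the Nduf genes of the a, b, c, s and v series with a number, which leaves out the Ndufaf assembly factors and the subunit Ndufab1, the Sdh, Uqcr and Atp5 genes and the Cox4 to Cox8 genes, which gave 84 of the 24421 genes in the count files. By symbol, 37 members belong to complex I, 4 to complex II, 8 to complex III, 18 to complex IV and 17 to complex V. The complex III subunit Cyc1 has another symbol and was not counted among them. The data comprise 4 Illumina TruSeq libraries of R1, an established mouse ESC line, with 2 biological replicates of each state. Undiff is R1 cells that the methods describe as maintained with leukaemia inhibitory factor (LIF), and that the labels describe as embryoid bodies, the aggregates in which ESCs differentiate. Day4 is embryoid bodies after 4 days with RA, which derives from vitamin A. The dose is 2 µM in the series design and 2 mM in the protocol of the labels. Before RA, the Day4 cells had spent 4 days as embryoid bodies in low adherence dishes without LIF per the methods. RA, LIF withdrawal, aggregation and the longer culture therefore cannot be told apart here. The labels name no engineered allele.

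Oxidative phosphorylation takes place in the inner mitochondrial membrane. Complex I takes electrons from NADH and complex II from succinate, complex III passes them to cytochrome c, and complex IV passes them to oxygen. Complexes I, III and IV pump protons, and complex V, the ATP synthase, uses the proton gradient to make ATP. Most subunits are encoded in the nucleus and some in mitochondrial DNA, and the latter were not analysed here. Several subunits of complex IV exist as isoforms from separate genes, a general form and a form found mainly in muscle, lung or testis. Glycolysis is known to be active in pluripotent stem cells.

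The libraries held 36674893 and 32099074 fragments on genes in Undiff and 34956489 and 47730944 in Day4, so that 3 counts corresponded to between 0.0615 and 0.0959 CPM, which are TMM-scaled counts relative to the library size. This floor covers counting error only. Of the fragments on genes, on none or on several, 12.1% and 13.2% were on no gene in Undiff and 7.50% and 7.74% in Day4, and the part of this difference in the results was not tested. The labelled cell type was checked on markers of pluripotent cells, and all 7 of 7 were lower in Day4, with a summed level of 3540 and 3639 CPM in Undiff and of 21.0 and 17.6 CPM in Day4. Endoderm markers were higher in Day4 for 6 of 6 genes, with summed levels of 6.79 and 8.21 CPM in Undiff and 545 and 537 CPM in Day4. Of the 3 erythroid markers 2 were higher and 0 lower, of the 4 markers of smooth muscle and mesenchyme 3 were higher and 0 lower, of the 4 endothelial markers 2 were higher and 2 lower, and of the 6 neural markers 1 was higher and 5 were lower. The erythroid markers summed to 1.73 and 1.73 CPM in Undiff and to 77.9 and 67.3 CPM in Day4, and those of smooth muscle and mesenchyme to 99.1 and 97.2 CPM and to 539 and 544 CPM. The endothelial markers summed to 168 and 167 CPM and to 256 and 263 CPM, and the neural markers to 158 and 156 CPM and to 117 and 131 CPM. The part of this change of cell types in the results on subunits was not tested, and in bulk RNA fewer cells of a type cannot be told apart from less RNA per cell.

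Of the 84 members, 82 had a count in at least 1 library and 80 had a mean normalized count of at least 5, the minimum used for calls. Ndufs5 and Cox8b were listed at 0 in all 4 libraries, and Cox6a2 and Cox8c lay under the minimum. Ndufs5 was the only complex I member without a count. Absent mRNA cannot be told apart here from fragments that were not assigned to the gene. For a differentially expressed gene (DEG), the thresholds were 0.05 for the adjusted p-value, 1 for the size of the log2 fold change in either direction, and that minimum mean. By these thresholds 5 of the 80 members were DEGs, or 6.25%, compared with 51.7% of the 16472 genes with the same minimum. Only Ndufa13 was a DEG higher in Day4, or 1.25% of members against 26.8% of all genes. Cox7a1, Cox7b2, Cox5a and Ndufa4l2 were DEGs lower in Day4, or 5.0% of members against 24.9% of all genes. Small changes were common. At any size of change, 62 of the 80 members passed the adjusted p-value (77.5%, against 86.9% of all genes), of which 33 were higher in Day4 (41.2%, against 44.3%) and 29 were lower (36.2%, against 42.5%). The log2 fold change lay within 0.5 of 0 for 57 of the 80 members, or 71.2%, compared with 27.0% of all genes. The members and all genes were not matched for mean count in this comparison or in that of DEGs. The number of members that were DEGs higher in Day4 was 2 without Undiff replicate 1 and 2 without Day4 replicate 2, and 3 when library totals replaced TMM. All p-values are those of edgeR (quasi-likelihood F-test), with Benjamini-Hochberg adjustment over 19891 genes unless another test is named.

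**Figure D1:**
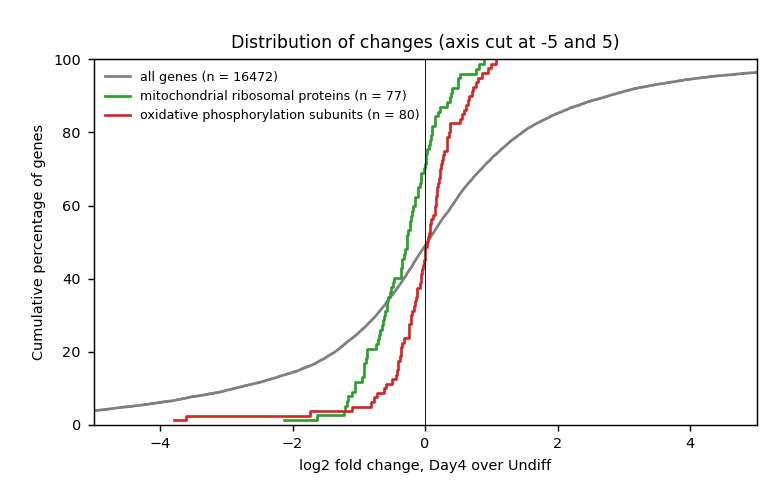
Cumulative percentage of genes (vertical axis) by log2 fold change of Day4 over Undiff (horizontal axis, cut at -5 and 5) for all 16472 genes, 77 mitochondrial ribosomal protein genes and 80 subunit genes, all at or above the minimum mean. The line of the subunits is steep around 0, where 71.2% of them lie within 0.5, and has a short lower tail formed by Cox7a1, Cox7b2 and Ndufa4l2.

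The direction of the small changes differed between complexes as a description over members. The median log2 fold change was 0.19 in complex I, with 21 members higher and 9 lower of 36. It was 0.17 in complex II, with 2 of 4 members higher and 0 lower. In complex IV it was -0.42, with 3 members higher and 10 lower of 15. Complexes III and V had medians near 0, at -0.035 and -0.056, with Cyc1 not counted in complex III. In complex III, 3 members were higher and 3 lower of 8, and in complex V 4 were higher and 7 lower of 17. With library totals in place of TMM the medians of complexes III and V turned positive, at 0.032 and 0.011, and without Undiff replicate 2 the median of complex III was 0.017. The median over all 16472 genes was 0.032, and 44.3% of them were higher and 42.5% lower in Day4.

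**Figure D2:**
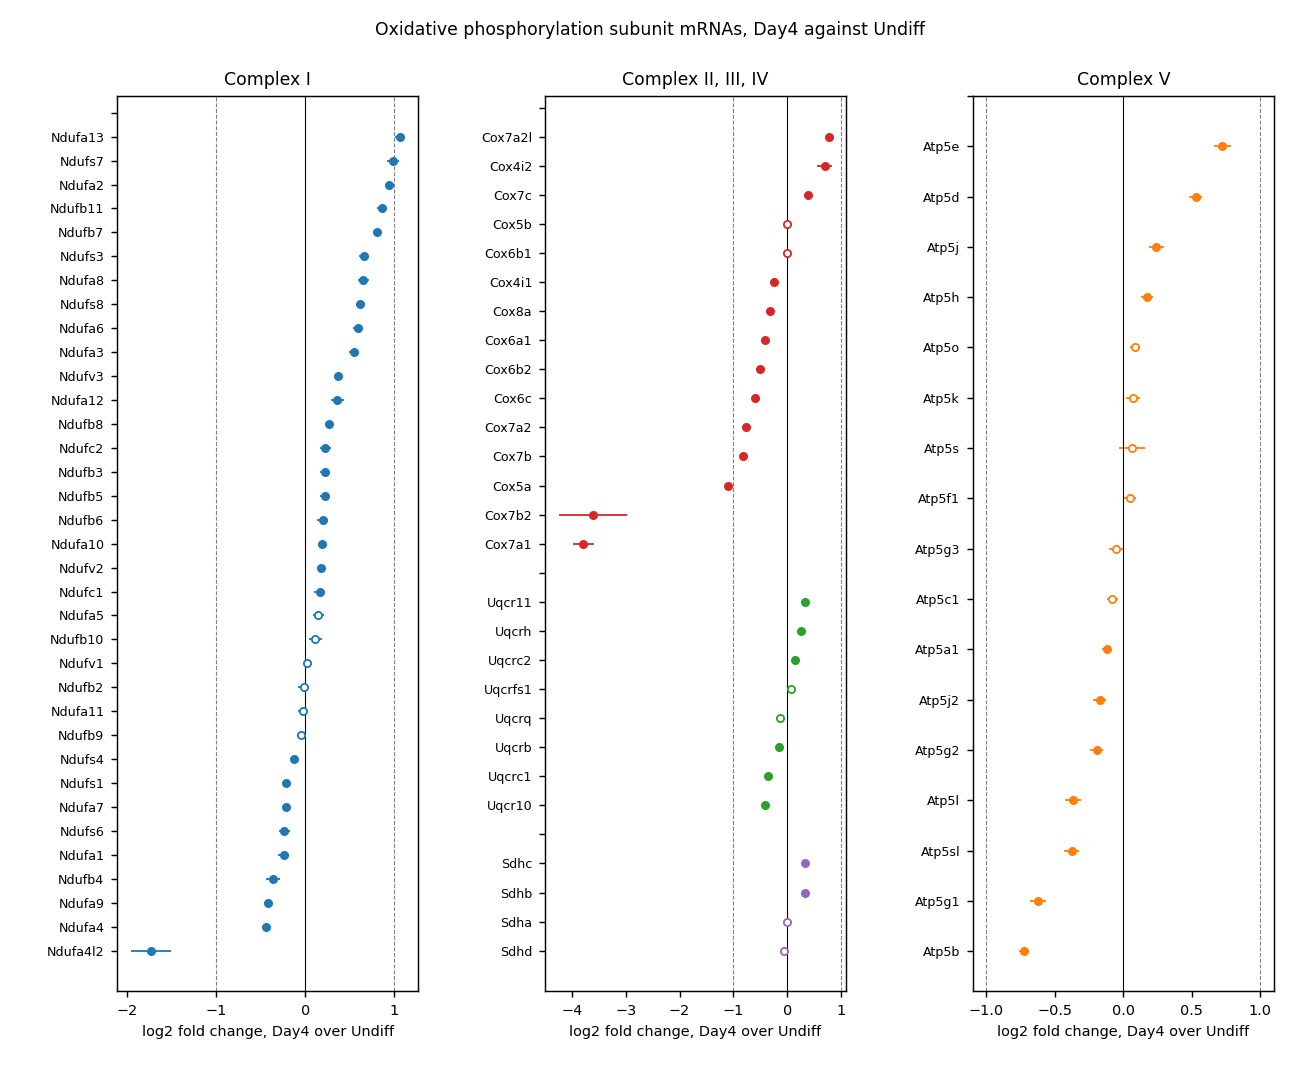
Log2 fold change of Day4 over Undiff (horizontal axis, with a scale of its own in each panel) for the members that passed the minimum mean (1 is not shown), sorted within each complex, with standard errors as bars. Filled points passed the adjusted p-value and open points did not, and dashed lines mark log2 fold changes of -1 and 1. Most points of complex I lie right of 0 and most points of complex IV left of it.

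Complex I has core subunits, which carry the redox centres and are conserved from bacteria, and accessory subunits around them. All 7 nuclear core subunits passed the minimum mean, and 5 of them were higher in Day4, against 44.3% of all genes. Ndufs7, which holds an iron-sulphur cluster next to the quinone site, had 1095 and 1058 normalized counts in Undiff and 2268 and 2014 in Day4. Both Day4 libraries lay above both Undiff libraries, and the log2 fold change of 0.99 ± 0.07 (standard error, SE, with adjusted p = 1.1e-08 in edgeR) lay just under the threshold of 1. It passed the threshold without Undiff replicate 1 (1.01) and without Day4 replicate 2 (1.04). Ndufs3 and Ndufs8 rose by 0.65 and 0.62 on the log2 scale. Ndufv2 rose by 0.18. The core subunit Ndufs1, the largest of the electron input arm, was lower in Day4, at -0.22 on the log2 scale. Ndufv1, which binds NADH, had 5521 and 5602 normalized counts in Undiff and 5692 and 5612 in Day4 (log2 fold change 0.023, adjusted p = 0.62 from edgeR), and its sign turned with DESeq2 size factors (-0.014).

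Of the 27 accessory subunits of complex I that passed the minimum, 16 were higher in Day4 and 6 were lower. The other 5 had an adjusted p-value above 0.05. Over all genes, 44.3% were higher and 42.5% lower. Ndufa13, also known as Grim19 (chromosome 8, 69894180 to 69902558 of GRCm38, minus strand), had 1927 and 1797 normalized counts in Undiff and 3950 and 3835 in Day4. The Day4 libraries lay above the Undiff libraries without overlap, a log2 fold change of 1.06 ± 0.05 (SE, with adjusted p = 3.5e-10 in edgeR), which ranged from 1.01 to 1.11 with each library left out. Its exons overlap those of Tssk6 on the opposite strand, and so do those of Ndufa2 with Tmco6, Ndufa3 with Tfpt and Ndufb11 with Rbm10. Other members also overlap a counted gene on the opposite strand, among them Ndufs3, Ndufs1, Cox4i1, Cox6c, Atp5a1, Atp5j and Uqcrc2. These counts are uncertain, since the methods do not name the TruSeq libraries as counted by strand. Ndufa2, Ndufb11 and Ndufb7 followed with log2 fold changes of 0.94, 0.86 and 0.80, and Ndufa8, Ndufa6 and Ndufa3 with 0.65, 0.59 and 0.55. In the other direction, Ndufa9 had 4806 and 4881 normalized counts in Undiff and 3551 and 3677 in Day4, a log2 fold change of -0.42 ± 0.04 (SE, with adjusted p = 1.3e-06 in edgeR). Ndufb4 was next with -0.36. The accessory subunits with an adjusted p-value above 0.05 were Ndufb9, Ndufa11, Ndufb2, Ndufb10 and Ndufa5, and for the first 4 of these the states overlapped.

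Ndufa4 and Ndufa4l2 carry complex I symbols, although the protein of Ndufa4 is known as a subunit of complex IV. Ndufa4 had 7097 and 7835 normalized counts in Undiff and 5358 and 5655 in Day4, a log2 fold change of -0.44 ± 0.05 (SE, with adjusted p = 4.3e-06 in edgeR). Ndufa4l2 (chromosome 10, 127514967 to 127517154, plus strand), a related gene known to respond to hypoxia, had 272 and 172 normalized counts in Undiff and 55.4 and 76.8 in Day4. All Day4 values lay below all Undiff values, and the log2 fold change was -1.73 ± 0.22 (SE, with adjusted p = 9.0e-06 in edgeR), with a range from -2.05 to -1.35 when each library was left out. Its exons overlap those of Shmt2 on the opposite strand. As a share of Ndufa4 and Ndufa4l2 together, Ndufa4l2 took 3.69% and 2.15% of the counts in Undiff and 1.02% and 1.34% in Day4. Without these genes, 21 members of complex I were higher and 7 were lower of 34, with a median of 0.21.

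Complex II is the only complex without a subunit from mitochondrial DNA, and all 4 of its subunits were measured. Sdha, the flavoprotein that oxidizes succinate and its member with the most counts, had 10960 and 11467 normalized counts in Undiff and 11246 and 11212 in Day4, and the ranges overlapped (log2 fold change 0.0022 ± 0.04 SE, with adjusted p = 0.96 in edgeR). The iron-sulphur subunit Sdhb had 4001 and 3753 normalized counts in Undiff and 4881 and 4871 in Day4, a log2 fold change of 0.33 ± 0.05 (SE, with adjusted p = 2.3e-05 in edgeR). Of the membrane anchors, Sdhc rose by 0.33, from 4478 and 4318 to 5557 and 5523 normalized counts. Sdhd had 5027 and 5009 in Undiff and 4819 and 4807 in Day4 (log2 fold change -0.060, adjusted p = 0.21 from edgeR).

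In complex III, which hands electrons to cytochrome c, the core proteins changed in opposite directions. Uqcrc1, with the most counts of the complex, had 10953 and 10438 normalized counts in Undiff and 8636 and 8118 in Day4, a log2 fold change of -0.35 ± 0.05 (SE, with adjusted p = 8.1e-06 in edgeR). Uqcrc2 had 7719 and 7333 in Undiff and 8191 and 8469 in Day4, a log2 fold change of 0.15 ± 0.04 (SE, with adjusted p = 0.0080 in edgeR), and DESeq2 and the fit without Day4 replicate 2 did not call it. The lowest small subunit was Uqcr10, with 4448 and 4434 normalized counts in Undiff and 3380 and 3294 in Day4 (log2 fold change -0.41, adjusted p = 1.6e-06 from edgeR). The highest was Uqcr11, with 1847 and 1910 in Undiff and 2481 and 2250 in Day4 (log2 fold change 0.33, adjusted p = 0.00017 from edgeR), and Uqcrh rose by 0.25. Uqcrfs1, the Rieske iron-sulphur protein, and Uqcrq had adjusted p-values above 0.05. Cyc1, outside the symbol rule, had 8511 and 8330 normalized counts in Undiff and 4684 and 4481 in Day4 (log2 fold change -0.88).

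Complex IV held 3 of the 5 DEGs among members. Cox5a (chromosome 9, 57521274 to 57532426, plus strand), a general subunit on the matrix side, had 7158 and 7457 normalized counts in Undiff and 3384 and 3400 in Day4. The states were far apart relative to the replicates, with a log2 fold change of -1.11 ± 0.04 (SE, with adjusted p = 4.2e-11 in edgeR) and a 2.15-fold lower level in Day4. The log2 fold change stayed between -1.14 and -1.08 with each library left out. Cox7b, with 6836 and 7692 normalized counts in Undiff and 4015 and 4214 in Day4, had a log2 fold change of -0.82 ± 0.06 (SE, with adjusted p = 1.3e-08 in edgeR). Cox7a2 followed with -0.77 and Cox6c with -0.59. Cox4i1, the general form of the largest nuclear subunit and the member of complex IV with the most counts, had 21024 and 20926 normalized counts in Undiff and 17766 and 17532 in Day4, a log2 fold change of -0.25 ± 0.04 (SE, with adjusted p = 3.0e-05 in edgeR). Cox6a1 and Cox8a were lower by log2 fold changes of -0.42 and -0.32.

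Not all general subunits of complex IV were lower. Cox7c had 8176 and 8721 normalized counts in Undiff and 10532 and 11435 in Day4, a log2 fold change of 0.38 ± 0.05 (SE, with adjusted p = 9.8e-06 in edgeR). Cox5b and Cox6b1 had overlapping ranges, log2 fold changes of 0.0023 and -0.0041 and adjusted p-values of 0.97 and 0.93 from edgeR. Cox7a2l, counted here by its symbol and known as a factor that joins complexes III and IV, had 2502 and 2334 normalized counts in Undiff and 4156 and 4108 in Day4, a log2 fold change of 0.77 ± 0.05 (SE, with adjusted p = 6.8e-09 in edgeR). Counting Ndufa4 and Ndufa4l2 in complex IV and leaving Cox7a2l out gave 2 higher and 12 lower of 16, with a median of -0.47.

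The tissue forms of complex IV subunits each took at most 10.3% of the counts of their subunit in any library. Cox7a1 (chromosome 7, 30184144 to 30186078, plus strand), the form of heart and skeletal muscle, had 291 and 327 normalized counts in Undiff and 29.2 and 16.9 in Day4. It was 13.8-fold lower in Day4, a log2 fold change of -3.79 ± 0.20 (SE, with adjusted p = 6.2e-10 in edgeR), between -4.18 and -3.42 with each library left out. As a share of Cox7a1 and Cox7a2 counts, Cox7a1 took 5.46% (95% Wilson interval 4.87 to 6.12) and 5.69% (5.07 to 6.39) in Undiff and 0.981% (0.680 to 1.41) and 0.528% (0.349 to 0.799) in Day4. Cox7b2 (chromosome 5, 71442824 to 71548205, minus strand), the counterpart of Cox7b, had 28 and 23 counts in Undiff and 5 and 0 in Day4. Its log2 fold change of -3.61 ± 0.64 (SE, with adjusted p = 0.00017 in edgeR) was -2.44 without Day4 replicate 2, the library at 0, and -7.88 without Day4 replicate 1, where the remaining Day4 library has no count and the size is not a measured one. Cox8c had 4 and 4 counts in Undiff and 0 and 1 in Day4, under the minimum, and Cox6a2 had at most 1 count in any library.

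Other isoforms moved less or the other way. Cox6b2, the form of testis, had 639 and 621 normalized counts in Undiff and 434 and 457 in Day4, a log2 fold change of -0.50 ± 0.08 (SE, with adjusted p = 4.8e-05 in edgeR). Its share of Cox6b1 and Cox6b2 counts was 10.3% and 9.92% in Undiff and 7.22% and 7.54% in Day4. Cox4i2, the form of lung, had 125 and 104 normalized counts in Undiff and 182 and 192 in Day4, a log2 fold change of 0.70 ± 0.14 (SE, with adjusted p = 0.00045 in edgeR). Its share of Cox4i1 and Cox4i2 counts was 0.591% and 0.495% in Undiff and 1.01% and 1.08% in Day4. For each share given here except that of the ATP synthase gene Atp5g2, both Day4 libraries lay on one side of both Undiff libraries (exact permutation test over libraries, two-sided p = 0.33, the smallest that 2 against 2 allows). Shares of counts do not correct for transcript length.

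Marker genes of muscle were considered beside these muscle forms. The 7 cardiac markers summed to 27.0 and 27.3 CPM in Undiff and to 13.09 and 12.04 CPM in Day4, with 2 higher and 3 lower of the 6 that passed the minimum. The 5 skeletal muscle markers summed to 4.40 and 4.99 CPM in Undiff and to 4.52 and 4.14 CPM in Day4. Of the 4 that passed the minimum, 1 was higher and 2 were lower. Over all genes, 44.3% were higher and 42.5% lower at any size of change. Acta1 and Ckm were lower, with Ckm at 0 in both Day4 libraries, while Tnnt3 was higher, with 47.9 and 46.7 normalized counts in Undiff and 158 and 144 in Day4 (log2 fold change 1.66). The part of these markers in the values of Cox7a1 was not tested.

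**Figure D3:**
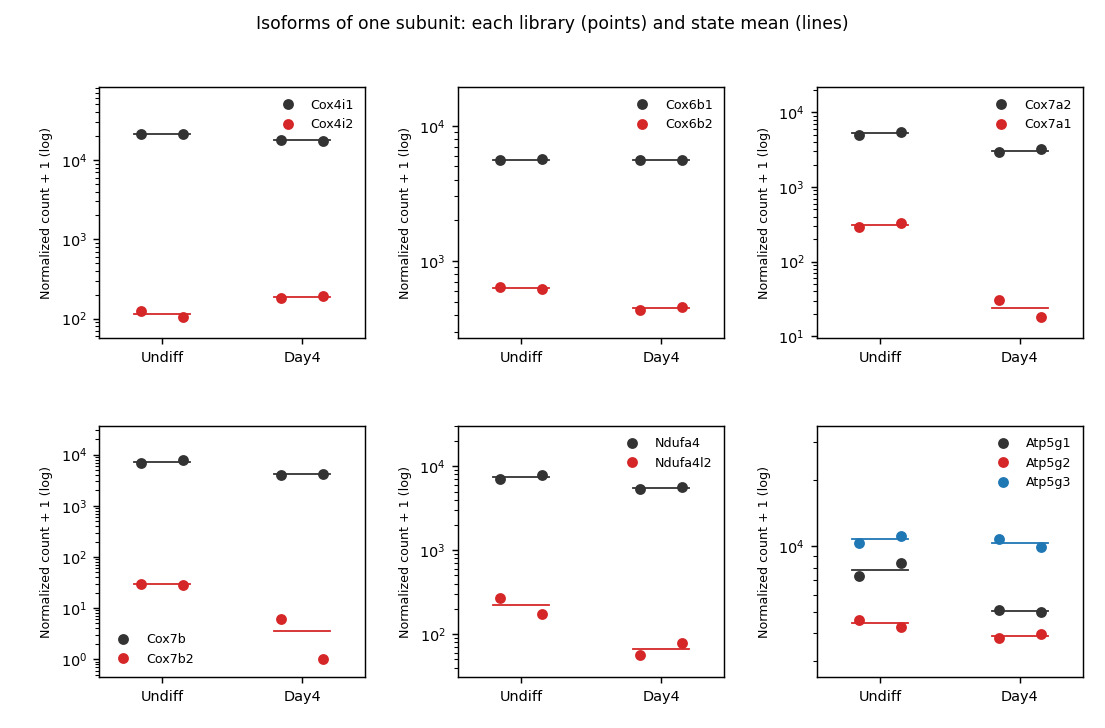
Normalized counts plus 1 (vertical axes, log scale) of the isoforms of 6 subunits in the Undiff and Day4 libraries, with each library as a point and the mean of a state as a line. Cox7a1 and Cox7b2 drop much further than Cox7a2 and Cox7b, Cox4i2 is higher in Day4 while Cox4i1 is lower, and Atp5g3 overlaps between states while Atp5g1 is lower.

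The ATP synthase, complex V, has a catalytic F1 head, a ring of c subunits in the membrane and a peripheral stalk. Atp5b, the catalytic beta subunit of F1 (chromosome 10, 128083273 to 128090391, plus strand), had the highest level of all members, with 80002 and 79700 normalized counts in Undiff and 48806 and 47723 in Day4. Its log2 fold change was -0.73 ± 0.03 (SE, with adjusted p = 1.8e-10 in edgeR). The partner of the beta subunit, Atp5a1, had 45452 and 44025 normalized counts in Undiff and 40662 and 41538 in Day4, a log2 fold change of -0.12 ± 0.04 (SE, with adjusted p = 0.0068 in edgeR), which was not called with library totals or without Day4 replicate 1. Per kilobase of exon, the level of Atp5b was 503 CPM in Undiff and 304 in Day4, and that of Atp5a1 was 381 and 350. The length joins all annotated exons, 4237 bases for Atp5b and 3135 for Atp5a1. Their longest coding transcripts have 1916 and 2674 bases, so that the order of these genes in Day4 depends on the length used. The small F1 subunits moved in the other direction. Atp5e had 1340 and 1454 normalized counts in Undiff and 2402 and 2214 in Day4, a log2 fold change of 0.72 ± 0.06 (SE, with adjusted p = 1.3e-07 in edgeR), and Atp5d rose by 0.53. Exons of Atp5d overlap those of Cbarp on the opposite strand.

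The c subunit is encoded by 3 genes that give the same mature protein. Atp5g1 had 7296 and 8367 normalized counts in Undiff and 5128 and 5025 in Day4, a log2 fold change of -0.62 ± 0.06 (SE, with adjusted p = 3.0e-07 in edgeR). Atp5g2 had 4610 and 4284 in Undiff and 3808 and 3956 in Day4 (log2 fold change -0.20, adjusted p = 0.0029 from edgeR). Atp5g3 had 10372 and 11191 in Undiff and 10835 and 9915 in Day4, with overlapping ranges (log2 fold change -0.056, adjusted p = 0.33 from edgeR). Of the counts of all 3 genes, Atp5g1 took 32.7% and 35.1% in Undiff and 25.9% and 26.6% in Day4, and Atp5g3 took 46.6% and 46.9% in Undiff and 54.8% and 52.5% in Day4. The share of Atp5g2 overlapped between the states, at 20.7% and 18.0% in Undiff and 19.3% and 20.9% in Day4.

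All 4 peripheral stalk genes had positive log2 fold changes, between 0.050 and 0.24, and Atp5j (0.24) and Atp5h (0.17) passed the test. Atp5h was not called without Day4 replicate 2. Of the membrane subunits, Atp5l was lower with -0.37 and Atp5j2 with -0.17. The adjusted p-value was above 0.05 for Atp5c1, Atp5f1, Atp5o, Atp5k and Atp5s as well as Atp5g3. Atp5sl, now named Dmac2 and known as an assembly factor of complex I, was lower with -0.38. Without Atp5s and Atp5sl, counted by symbol only, 4 members of complex V were higher and 6 were lower of 15 (median -0.056).

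Summed over its members, the level of complex I was 2581 and 2651 CPM in Undiff and 2972 and 2950 CPM in Day4, a difference of 13.2% of the Undiff mean. Complex II went from 654 and 656 CPM to 708 and 706 CPM, a difference of 7.96%. Complex III, in which Cyc1 was not counted, went from 1048 and 1054 CPM to 1012 and 1010 CPM (-3.80%). Complex IV went from 2065 and 2162 CPM to 1744 and 1778 CPM (-16.7%), and complex V from 5564 and 5615 CPM to 4640 and 4614 CPM (-17.2%). The states did not overlap for any of the 5 sums (exact permutation test, two-sided p = 0.33 each, the smallest possible). With library totals the sum of complex III was higher in Day4, by 0.011 on the log2 scale. Without Atp5b the difference of complex V was -3.43%. Atp5b took 38.4% and 37.9% of the sum in Undiff and 28.1% and 27.6% in Day4.

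**Figure D4:**
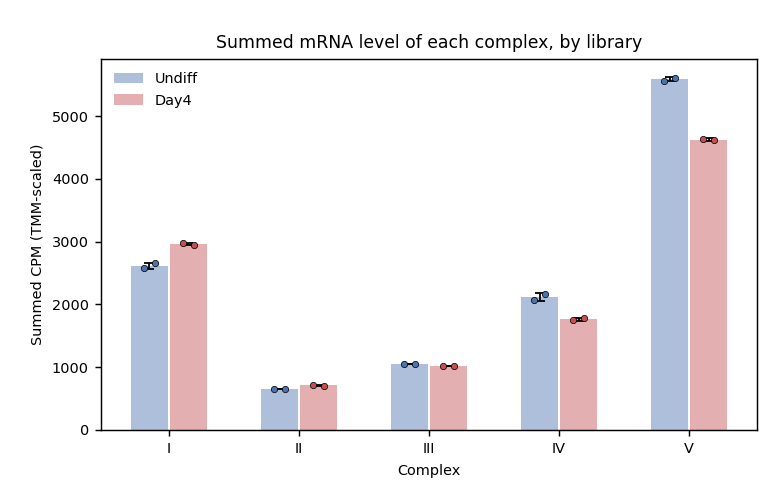
Summed TMM-scaled CPM (vertical axis, from 0) of the members of each complex (horizontal axis), with bars for the mean of 2 libraries, error bars for the SD and points for the libraries. The Day4 bars stand above the Undiff bars for complexes I and II and below them for complexes III, IV and V.

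Promoters of 67 members were found in RefSeq on GRCm38.p6, as the 250 bases before and 50 after each start. They were searched on both strands for short motifs of factors known to control respiratory genes. The motif GCATGCGC of NRF1 was present in 10 of 67 members (14.9%), against 5.33% of 12597 genes at or above the minimum mean and 3.05% of all 27025 genes with a promoter. CCGGAAG, the motif of GABP, was present in 16 (23.9%, against 17.3% and 9.93%), AAGATGGCG of YY1 in 8 (11.9%, against 2.99% and 1.64%), and AAGGTCA of oestrogen-related receptors (ERR) in 8 (11.9%, against 4.16% and 5.38%). The NRF1 motif was in 4 of 28 members higher in Day4 and 4 of 23 lower ones, the GABP motif in 10 of 28 and 3 of 23, the YY1 motif in 3 of 28 and 5 of 23, and the ERR motif in 1 of 28 and 2 of 23. Matches of NRF1 on the strands can overlap, since its motif is nearly its own reverse complement. A match is a description and not a binding site. The windows below belong to the lower DEGs (without Ndufa4l2), and to a member of complex I and members of complex V with a match. In these lower DEGs none of the 4 motifs occurred in the 250 bases before the start. The same held for members higher in Day4 such as Ndufa13, Ndufa3 and Cox7a2l. A link between matches and direction was not tested. The windows hold 100 bases upstream of the annotated exons, 5′ to 3′ on the strand of the gene, with matches in capitals.
Cox7a1, chr7:30184044-30184143, plus strand: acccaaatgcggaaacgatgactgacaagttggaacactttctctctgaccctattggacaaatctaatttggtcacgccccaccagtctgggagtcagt
Cox7b2, chr5:71548206-71548305, minus strand: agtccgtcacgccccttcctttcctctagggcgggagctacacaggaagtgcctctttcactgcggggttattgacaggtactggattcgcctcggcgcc
Cox5a, chr9:57521132-57521231, plus strand: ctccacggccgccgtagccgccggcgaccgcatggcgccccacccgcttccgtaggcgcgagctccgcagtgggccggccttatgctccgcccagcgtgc
Ndufa6 with an NRF1 match, chr15:82354323-82354422, minus strand: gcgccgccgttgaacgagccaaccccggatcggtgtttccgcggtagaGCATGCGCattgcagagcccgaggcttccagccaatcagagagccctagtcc
Atp5e with a GABP match, chr2:174464106-174464205, minus strand: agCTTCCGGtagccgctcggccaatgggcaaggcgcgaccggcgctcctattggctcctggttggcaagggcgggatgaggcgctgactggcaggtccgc
Atp5g3 with an ERR match, chr2:73911327-73911426, minus strand: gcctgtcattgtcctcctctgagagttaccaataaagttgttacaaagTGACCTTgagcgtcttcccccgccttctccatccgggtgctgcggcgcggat

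The regulators themselves were read from a list of 17 genes, of which 9 were higher and 6 lower in Day4, with 5 and 3 DEGs. Over all genes, 44.3% were higher and 42.5% lower, and 26.8% were DEGs higher and 24.9% DEGs lower. Ppargc1a, a coactivator of respiratory genes, had no count in Undiff and 248 and 272 normalized counts in Day4, at least 77.3-fold higher (floor of 3 counts per library). On the same list, Pprc1 had 9519 and 10160 normalized counts in Undiff and 3573 and 3598 in Day4, a log2 fold change of -1.46. Ppargc1b had a log2 fold change of -0.41 (adjusted p = 0.059 from edgeR). Esrrg, an oestrogen-related receptor, had 4.17 and 7.18 normalized counts in Undiff and 732 and 761 in Day4. Esrrb, a receptor of the same family that is also a pluripotency gene, had 11054 and 11560 in Undiff and 85.7 and 80.6 in Day4. Nrf1 had a log2 fold change of -0.12 (adjusted p = 0.057 from edgeR), and Gabpa was lower with -0.79. Esrra and Yy1 were higher with 0.30 and 0.24. The DEGs Epas1 and Ppard had log2 fold changes of -2.77 and 1.37, and Hif1a was higher with 0.65.

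Other mitochondrial gene groups are given beside the subunits by their counts. Over all genes with the same minimum, 44.3% were higher and 42.5% lower at any size of change, and 26.8% were DEGs higher and 24.9% DEGs lower in Day4. Of 77 mitochondrial ribosomal proteins, 13 were higher and 48 lower, with a median of -0.28 and 9 DEGs, all lower, led by Mrps18b (-2.13). Of 25 genes of the tricarboxylic acid cycle and pyruvate dehydrogenase, 6 were higher and 16 lower (median -0.28), with DEGs such as Pdk2 (2.90) and Pdk4 (-3.01), kinases that inhibit pyruvate dehydrogenase. Of 22 import genes, 8 were higher and 13 lower (median -0.41), and of 16 genes that maintain or transcribe mitochondrial DNA, 4 were higher and 10 lower (median -0.60). Subunits and carriers outside the symbol rule had 0 genes higher and 4 lower of 6. Among the lower ones were cytochrome c, Cycs, with -0.98, the complex III subunit Cyc1 with -0.88 and the complex I subunit Ndufab1 with -0.25. Assembly factors were mixed. For complex I, 5 of 15 were higher and 8 lower, with Lyrm2 at 2.49 and Ecsit at -1.68, and for complex IV, 7 of 22 were higher and 9 lower, with Cox16 at 2.14 and Fastkd1 at -1.91. For complexes II, III and V, 3 of 4, 4 of 6 and 1 of 3 were higher, and 1 was lower in each. The difference between any of these groups and the subunits was not tested.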

How the data were processed

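The 4 TruSeq libraries cover R1 ESCs in both states. The authors used cutadapt for trimming and STAR 2.4.2a for alignment to mm10, and deposited htseq-count counts of uniquely aligned fragments per gene symbol, without normalization. Fragments on near-identical genes are therefore counted low. The methods name only the long-read Direct RNA samples as counted by strand at the gene level, and do not print the option for TruSeq. The authors' exon counts of TruSeq did not use the strand. Fragments on no gene (12.1% and 13.2% in Undiff, 7.50% and 7.74% in Day4) and ambiguous ones (between 1.84% and 1.91%) were left out.

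Groups came from the sample labels. Counts were TMM-scaled and tested with edgeR 4.0.16 in R 4.3.3 (glmQLFit, glmQLFTest) over 19891 genes with a count. The planned test named no option of glmQLFit. The default option of this version was run first and gave an infinite prior degrees of freedom, and the option with a finite estimate (10.4) was then made the main fit with the results of both seen. Normalized counts are on the scale of a library with the mean effective size (geometric mean of 4), and the standard error is the log2 fold change divided by the square root of F. Wilson intervals cover counting error only, since reads without molecular identifiers are not independent molecules. DESeq2 1.42.0, other scalings, filterByExpr, a replicate block and leaving out each library were alternatives.

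Members and lists were chosen with earlier results of these data known. Named members were the DEGs, the highest, the lowest and the most counted of each complex, the isoform families and those with an adjusted p-value above 0.05. Other members were named after their values were seen. The values of 1 member are not reported here. Positions and lengths are from GENCODE vM21 on GRCm38, the assembly behind mm10, matched by symbol (83 of 84, with Atp5sl as Dmac2), and 24 members share exon positions with another counted gene. The replicates are separate cultures per the methods.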

Additional observations from a re-analysis of the deposited data

How the results depend on the processing

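The number of members that were DEGs was between 5 and 7 under all alternatives, and the number that passed the adjusted p-value was between 56 and 64. The default option of edgeR's quasi-likelihood fit, seen before the main option was chosen, gave 5 and 64. DEGs higher in Day4 numbered 3 with library totals, with Ndufs7 and Ndufa2 added, and between 1 and 2 with each library left out.

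The medians of the complexes moved with the scaling. In order they were 0.15, 0.13, -0.073, -0.45 and -0.093 with DESeq2 (with or without shrinkage) and with its size factors in edgeR, and those of complexes III and IV lay within the range from leaving out each library. With library totals they were 0.26, 0.23, 0.032, -0.35 and, for complex V, 0.011, while the median of all genes moved from 0.032 to 0.10. With filterByExpr, complexes II and III were at 0.14 and -0.066, and the other assignment of genes put complex IV at -0.47. Leaving out each library gave 0.16 to 0.23 for complex I, 0.14 to 0.16 for II, -0.087 to 0.017 for III, -0.46 to -0.38 for IV and -0.072 to -0.00085 for V.

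The log2 ratios of the summed CPM, in the order of the complexes, were 0.18, 0.11, -0.056, -0.26 and -0.27. They were 0.14, 0.073, -0.093, -0.30 and -0.31 with DESeq2 size factors and 0.25, 0.18, 0.011, -0.20 and -0.21 with library totals. The mean of log2 CPM over members gave 0.15, -0.033, -0.59 and -0.047 for complexes II to V. Leaving out each library gave 0.15 to 0.20, 0.083 to 0.11, -0.084 to -0.052, -0.31 to -0.23 and -0.30 to -0.27.

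Divided by exon length, the difference in share (Day4 minus Undiff, percentage points) was 0.978 for Cox4i2, -1.86 for Cox6b2, -8.12 for Cox7a1, -0.726 for Cox7b2, -4.58 for Atp5g1, 4.88 for Atp5g3 and, reversed, -0.307 for Atp5g2, which lay between -0.596 and 2.13 with each library left out.

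Members near 0 changed sign. Sdha and Ndufv1 were at -0.035 and -0.014 with DESeq2 (both forms) and with its size factors, Cox5b was at -0.036 with DESeq2 (both forms) and -0.035 with the size factors, and with filterByExpr the 3 members were at -0.029, -0.0078 and -0.029. Library totals put Atp5g3, Cox6b1 and Sdhd at 0.011, 0.063 and 0.0064. With each library left out, Sdha lay between -0.030 and 0.035, Cox5b between -0.067 and 0.073 and Cox6b1 between -0.038 and 0.0056. Of the values of named members under the alternatives, 554 kept their direction and their side of the threshold, 7 lost the call, 1 gained it and 21 changed sign. The causes were not tested.

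Deviations of libraries with the same replicate number had a correlation of -0.01 over 16472 genes (2 pairs). With so few pairs and counting noise in each gene, this cannot tell whether the replicate numbers pair the libraries. With a replicate block 5 members were DEGs and 63 passed the adjusted p-value, and no call of a named member changed. Leaving out a library leaves 1 in its state, which is assumed to vary like the other state. With 2 libraries per state, the adjusted p-values rest on variance shared over genes, and Cox7b2, Cox8c and Cox6a2 are limited by depth.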
